A study of Homo sapiens with 8 samples.

Results

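Heat shock factor 1 (HSF1) and 9 heat shock protein genes were followed in H1299 cells, a line established from a human lung carcinoma of the non-small cell kind, after knockdown of USF1 and after knockdown of UGT1A3. The genes were HSPA1A, HSPA1B, HSPA4, HSPA8, HSPB1, HSPH1, HSP90AA1, DNAJB1 and DNAJB4. Every probe set of the array whose platform annotation gave exactly 1 gene symbol, equal to one of these 10 genes, was taken, which gave 32 of 49293 probe sets. HSPA8 had 9 of them, HSPH1 8, HSPA4 4, DNAJB1 and DNAJB4 3 each, HSP90AA1 2, and HSF1, HSPA1B and HSPB1 1 each. HSPA1A had none, because its 4 probe sets carried the symbols of both HSPA1A and HSPA1B.

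Total RNA was biotin-labelled and hybridised to 8 one-colour Affymetrix arrays, and the deposited unit is the log2 intensity of a probe set. One set of arrays compared USF1 knockdown by a transfected short hairpin RNA (3 arrays) with a USF1 control (3 arrays). The other compared UGT1A3 knockdown, made in the same way (1 array), with a UGT1A3 control (1 array). All groups are H1299 cells. USF1 is an E-box-binding transcription factor, and UGT1A3 is an enzyme that conjugates glucuronic acid to lipophilic compounds. What the control cells received, the time after transfection and whether the replicates were separate cultures are not given in the sources used here, so p-values reflect the spread among arrays alone, and that spread may be technical.

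HSF1 is a transcription factor that is held inactive by chaperones in unstressed cells. When unfolded proteins engage those chaperones, HSF1 forms trimers and binds heat shock elements, which are runs of GAA units in alternating orientation upstream of its targets. The HSP70 proteins (HSPA1A, HSPA1B and the constitutive HSPA8) bind unfolded stretches of proteins with the help of J-domain partners such as DNAJB1 and DNAJB4, and HSPA4 and HSPH1 of the HSP110 family exchange their nucleotide. HSP90AA1 is the inducible cytosolic HSP90, which matures kinases and steroid receptors, and HSPB1 is a small heat shock protein that holds unfolded proteins without using ATP. Carcinoma cells commonly depend on raised levels of these chaperones.

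The labels were checked first. The single USF1 probe set read 6.06, 5.88 and 6.13 on the USF1 knockdown arrays, against 6.31, 6.55 and 6.42 on the USF1 control arrays, a change of -0.40 that left 75.6% of the control level (SE 0.08, limma adjusted p = 0.00889). No probe set carried the symbol of UGT1A3 alone, and the 9 that name it beside other UGT1A genes were all dim, so its knockdown could not be checked. The medians were 6.53 to 6.55 on the USF1 arrays and 5.63 and 5.59 on the UGT1A3 knockdown and control arrays, and no level was compared across the sets. A probe set was called dim when its mean over the arrays of a set was under the 40th percentile, a log2 intensity of 5.63 for USF1 arrays and of 4.76 for UGT1A3 arrays. The keratin KRT18 (12.85 and 12.81 on the USF1 knockdown and control arrays) and vimentin (VIM, 14.57 and 14.56) were well above this limit, whereas the epithelial markers EPCAM and CDH1 were dim in both sets. Of 20 marker genes 11 were tested after USF1 knockdown and 2 passed, the keratin KRT8, which rose by 0.25, and N-cadherin (CDH2), which rose by 0.28 (limma adjusted p = 0.00197 and 4.77e-04). Their part in the results was not tested. Of 10 markers of fibroblasts, leukocytes and endothelium, 6 were dim in the USF1 arrays and 0 of the other 4 passed the test. Among these 4 the leukocyte marker CD68 was well above the dim limit, at 9.37 and 9.46 on the USF1 knockdown and control arrays. It read 8.18 in the UGT1A3 knockdown and 7.71 in the UGT1A3 control. RNA integrity was read as the 3' minus 5' signal of GAPDH and ACTB, with 2 probe sets at each end. It was 0.27 to 0.29 on the USF1 knockdown arrays and 0.26 to 0.30 on the USF1 control arrays. In the UGT1A3 pair it was 0.13 in the knockdown and 0.1 in the control. In these bulk RNA samples fewer cells that express a gene and less RNA per cell cannot be told apart.

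The sequences before the start sites of these genes show where heat shock units lie. In the 250 bases upstream of each RefSeq start site (GRCh38.p14), pairs of units spelled GAANNTTC or TTCNNGAA were searched, each of which reads the same on both strands, and the pairs may overlap. A pair was found before 7 of 13 start sites of the 9 members in the promoter table, and before 11.6% of all 35116 start sites. Runs of 3 units, GAANNTTCNNGAA or TTCNNGAANNTTC, were found before 2 of the 13, those of HSPA8 and HSP90AA1, and before 0.441% of all start sites. The USF E-box CACGTG was found before 0 of the 13 and before 6.34% of all start sites. These are matches of letters and not measured binding. The 7 windows with a pair are shown, chosen with the USF1 results known, with HSPA1A, which had no probe set of its own, beside its near copy HSPA1B. They are written 5′ to 3′ on the strand of the gene and ending 1 base before the start site, with the paired units in capitals. Where a gene has several start sites, the one with the most pairs is shown. DNAJB1, DNAJB4 and HSP90AA1 have other start sites with no pair in their windows. HSPH1 had no pair and is not shown, though 1 of its 8 probe sets rose after USF1 knockdown. Whether a pair goes with a change in RNA was not tested.
HSPA1A (chr6:31815293-31815542, plus strand): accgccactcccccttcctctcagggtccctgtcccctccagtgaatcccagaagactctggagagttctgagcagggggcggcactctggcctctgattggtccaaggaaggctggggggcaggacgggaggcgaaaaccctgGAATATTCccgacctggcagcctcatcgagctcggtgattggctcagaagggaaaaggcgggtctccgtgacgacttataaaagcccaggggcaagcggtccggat
HSPA1B (chr6:31827488-31827737, plus strand): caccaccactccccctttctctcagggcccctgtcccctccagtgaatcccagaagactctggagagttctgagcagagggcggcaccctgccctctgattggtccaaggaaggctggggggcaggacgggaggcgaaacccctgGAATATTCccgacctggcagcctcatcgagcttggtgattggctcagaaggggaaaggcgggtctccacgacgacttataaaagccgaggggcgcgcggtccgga
DNAJB1 (chr19:14518398-14518647, minus strand): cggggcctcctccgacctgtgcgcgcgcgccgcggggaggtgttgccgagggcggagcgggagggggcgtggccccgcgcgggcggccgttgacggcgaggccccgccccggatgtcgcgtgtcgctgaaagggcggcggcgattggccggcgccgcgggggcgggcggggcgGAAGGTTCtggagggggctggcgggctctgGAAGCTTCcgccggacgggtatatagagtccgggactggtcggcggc
DNAJB4 (chr1:78004689-78004938, plus strand): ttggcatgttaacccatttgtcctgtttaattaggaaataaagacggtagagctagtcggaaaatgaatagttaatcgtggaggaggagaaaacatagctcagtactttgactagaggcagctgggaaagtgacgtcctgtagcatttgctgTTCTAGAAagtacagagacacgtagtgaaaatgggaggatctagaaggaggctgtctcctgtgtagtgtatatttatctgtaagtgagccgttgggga
HSPB1 (chr7:76302423-76302672, plus strand): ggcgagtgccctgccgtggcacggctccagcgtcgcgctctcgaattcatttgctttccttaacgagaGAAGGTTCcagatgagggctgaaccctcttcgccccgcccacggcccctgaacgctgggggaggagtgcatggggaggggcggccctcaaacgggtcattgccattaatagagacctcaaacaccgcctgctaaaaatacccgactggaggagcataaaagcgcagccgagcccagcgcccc
HSPA8 (chr11:123062137-123062386, minus strand): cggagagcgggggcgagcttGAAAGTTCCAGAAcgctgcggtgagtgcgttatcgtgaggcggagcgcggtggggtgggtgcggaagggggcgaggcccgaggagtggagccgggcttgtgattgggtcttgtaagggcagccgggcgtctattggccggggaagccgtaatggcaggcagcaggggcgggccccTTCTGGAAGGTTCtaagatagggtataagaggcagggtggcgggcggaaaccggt
HSP90AA1 (chr14:102087045-102087294, minus strand): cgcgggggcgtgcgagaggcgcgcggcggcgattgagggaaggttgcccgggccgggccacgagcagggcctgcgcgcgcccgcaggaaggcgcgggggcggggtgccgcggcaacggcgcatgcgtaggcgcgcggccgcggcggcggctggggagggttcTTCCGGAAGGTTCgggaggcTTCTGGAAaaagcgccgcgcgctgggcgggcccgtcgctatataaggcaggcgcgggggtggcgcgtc
HSPA1A and HSPA1B, neighbours on chromosome 6, agreed at 235 of 249 aligned bases of these windows and carried the same pair. HSPA8 held 4 pairs that made 2 runs of 3 units, HSP90AA1 held 3 pairs, DNAJB1 2, and DNAJB4, HSPB1, HSPA1A and HSPA1B 1 each. HSPA4 and HSPH1 had no such letters in their windows.

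**Figure D1:**
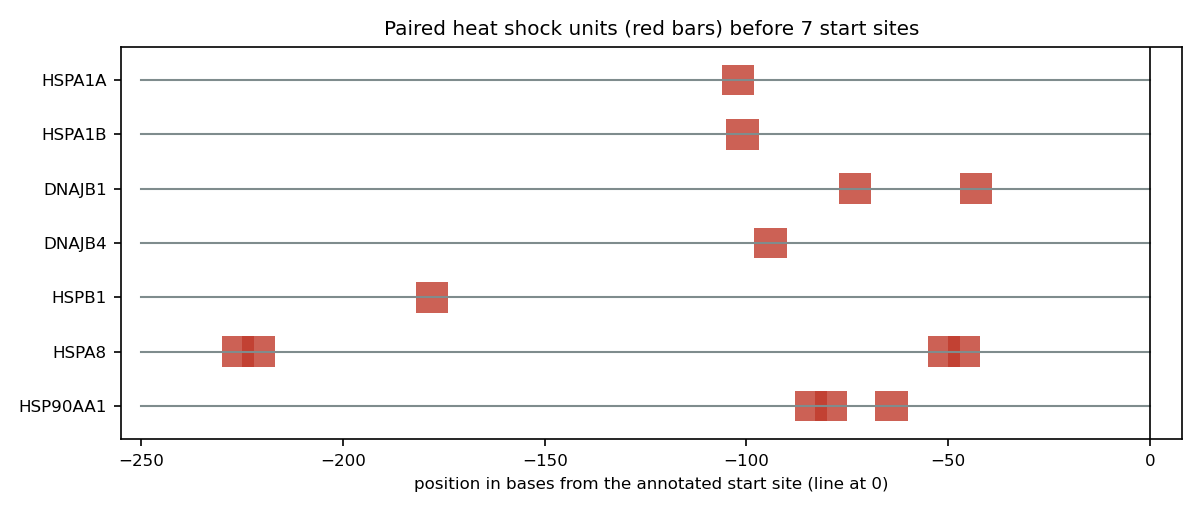
Positions of the paired heat shock units in the 250 bases before 7 start sites, with distance from the start site in bases on the horizontal axis and 1 row per gene. Overlapping bars in HSPA8 (positions -230 and -55) and HSP90AA1 (position -88) are the runs of 3 units, and the single pair of HSPB1 starts at -182.

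After USF1 knockdown the heat shock genes split by gene and not as a block. All probe sets of the stress-inducible HSPA1B, of DNAJB1, of DNAJB4 and of HSPB1 rose, by 0.26 to 0.46 on the log2 scale, while 8 of 9 probe sets of the constitutive HSPA8 and 1 of 2 of HSP90AA1 fell. HSF1 itself and HSPA4 did not pass the test, and 1 of 8 probe sets of HSPH1 rose. All 32 probe sets were bright enough to be tested in the fit across 29576 bright probe sets, with a threshold of 0.05 on the limma p-value adjusted over all of them. In that fit 9 member probe sets rose, 9 fell and 14 did not pass. Thus 18 passed, where 37.3% of all tested probe sets passed, 19.8% upward and 17.5% downward. Of the member probe sets 22 were among the brightest 25%, where 23.9% of all 7394 probe sets passed upward and 20.5% downward. The falls were fewer under some settings. Without USF1 control 1, 8 rose and 5 fell. Without USF1 control 3, 9 rose and 5 fell. Without USF1 knockdown 1, 14 passed, of which 6 fell. Over all 29576 tested probe sets 5181 fell with all arrays, and 3973, 3888 and 4175 in these settings, in the same order. Probe sets of 1 gene share their transcript, so the member counts follow the number of probe sets per gene. The median change over the members was 0.02, against 0.01 over all tested probe sets. The 3 knockdown arrays lay above all 3 controls for 13 member probe sets and below them for 11, where 27.3% and 24% of all tested probe sets did so.

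HSF1 read 8.72, 8.76 and 8.72 on the USF1 knockdown arrays, against 8.68, 8.66 and 8.66 on the USF1 control arrays. The groups did not overlap, but the change of 0.07 did not pass (SE 0.03, 95% interval -0.005 to 0.135, limma adjusted p = 0.13). HSF1 is regulated mostly as a protein, by chaperone binding, phosphorylation and acetylation, which an RNA array does not read. Under the 13 alternative settings its change was 0.05 to 0.07 with adjusted p-values from 0.0783 to 0.293.

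HSPA1B, the heat-inducible HSP70, read 10.99, 10.98 and 10.91 on the USF1 knockdown arrays, against 10.60, 10.57 and 10.59 on the USF1 control arrays. Every knockdown array was higher than every control, and the rise of 0.37 (SE 0.04, 1.30-fold, limma adjusted p = 4.88e-04) was several times the spread within either group. The coding sequences of HSPA1A and HSPA1B are nearly identical and the probe set is of the type that can bind several transcripts, so the value may include HSPA1A. The 4 probe sets that carry both symbols rose as well, by 0.30 to 0.43, with limma adjusted p-values from 2.62e-04 to 0.00136. The brightest of these 4 read 12.15, 12.24 and 12.21 on the USF1 knockdown arrays, against 11.93, 11.87 and 11.91 on the USF1 control arrays. They were kept out of the count of members and concern the 2 genes jointly.

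DNAJB1, the J-domain protein that hands substrates to HSP70 and is itself a target of HSF1, rose on each of its 3 probe sets. Probe set 11715445_a_at read 11.34, 11.30 and 11.29 on the USF1 knockdown arrays, against 10.91, 10.99 and 11.02 on the USF1 control arrays. Its rise was 0.34 (SE 0.04, 1.26-fold, limma adjusted p = 9.04e-04). The other 2 probe sets rose by 0.29 and 0.26 (limma adjusted p = 0.00162 and 0.00513), and in each the groups did not overlap.

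DNAJB4, a related J-domain protein of the cytosol and plasma membrane, gave the largest rise of a single member probe set. Probe set 11739081_at read 9.24, 9.31 and 9.25 on the USF1 knockdown arrays, against 8.85, 8.81 and 8.76 on the USF1 control arrays. The rise was 0.46 (SE 0.04, 1.38-fold, limma adjusted p = 2.88e-04). Its other 2 probe sets rose by 0.44 and 0.35 (limma adjusted p = 6.35e-04 and 0.0013), so the size differed between probe sets while the direction was shared.

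HSPB1, the small heat shock protein also called HSP27, read 12.30, 12.24 and 12.20 on the USF1 knockdown arrays, against 11.77, 11.85 and 11.82 on the USF1 control arrays. It rose by 0.43 (SE 0.04, 1.35-fold, limma adjusted p = 4.37e-04), with all knockdown arrays above all controls. It was read by 1 probe set, also of the type that can bind several transcripts. The calls of HSPA1B, DNAJB1, DNAJB4 and HSPB1 were kept under each of the 13 alternative settings, with adjusted p-values of at most 0.0225, the highest being that of 1 DNAJB1 probe set.

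**Figure D2:**
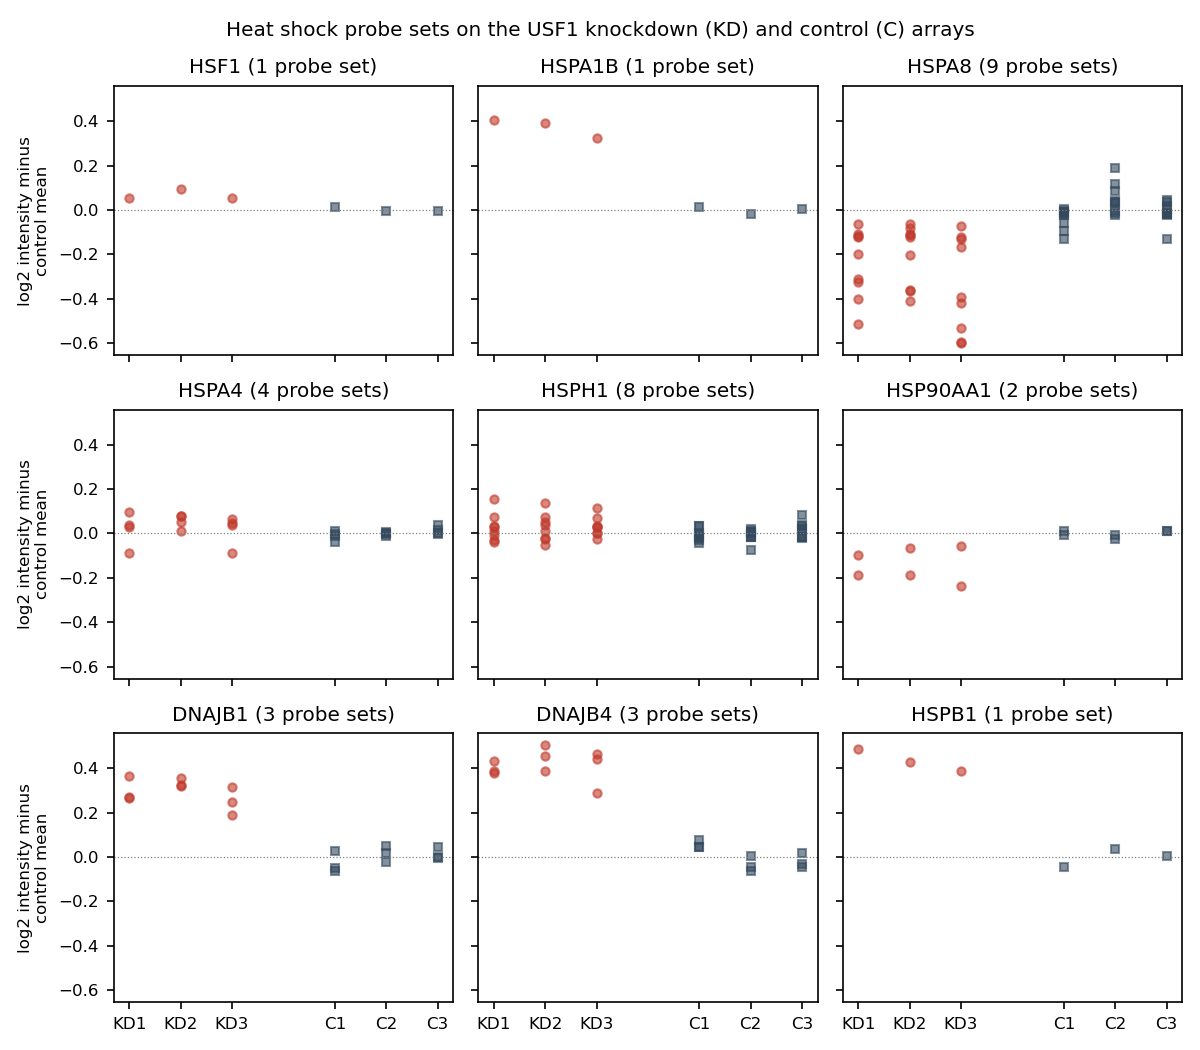
Log2 intensity of each member probe set minus its mean on the 3 USF1 controls (vertical axis), on the 3 USF1 knockdown arrays (KD, red circles) and the 3 USF1 control arrays (C, dark squares), with 1 panel per gene and 1 point per probe set and array. HSPA1B, DNAJB1, DNAJB4 and HSPB1 lie above 0 on all knockdown arrays, the 9 HSPA8 probe sets lie below 0, and HSPH1 stays around 0.

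HSPA8, the abundant constitutive HSP70 that also uncoats clathrin vesicles and serves chaperone-mediated autophagy, was lower on all 9 probe sets, and 8 passed. On the brightest, 11720916_s_at, the USF1 knockdown arrays read 14.34, 14.34 and 14.34, against 14.45, 14.44 and 14.50 on the USF1 control arrays. That fall was small, by 0.12 (SE 0.03, limma adjusted p = 0.0194). The other 3 probe sets with control means of 14 to 14.19 gave -0.07, -0.11 and -0.13, of which the first did not pass (limma adjusted p = 0.119, and 0.00268 with an intensity trend in the variance model). The remaining 5 probe sets had control means of 6.51 to 9.56 and gave larger changes, from -0.32 to -0.44. Of these, 11762261_x_at read 9.23, 9.35 and 9.02 on the USF1 knockdown arrays, against 9.53, 9.59 and 9.54 on the USF1 control arrays (change -0.36, SE 0.08, limma adjusted p = 0.012). The most negative value, -0.44 (SE 0.10, limma adjusted p = 0.0139), came from 11757115_s_at, which read 6.20, 6.10 and 5.91 on the USF1 knockdown arrays, against 6.45, 6.70 and 6.38 on the USF1 control arrays.

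HSPA8 hosts small nucleolar RNAs in its introns, and 2 of the 5 dimmer probe sets, 11757166_at and 11757167_x_at, were designed on the RefSeq record of SNORD14D (GRCh38.p14 chromosome 11, 123058909 to 123058995, within HSPA8 at 123057489 to 123062462). They gave -0.41 and -0.39 (limma adjusted p = 0.0388 and 0.003), and whether they read the small RNA, the unspliced host transcript or the mRNA was not tested. Without them 9 member probe sets rose and 7 fell. Of the 8 HSPA8 calls 4 were close to the threshold. That of 11720916_s_at was lost without USF1 control 1 (0.052), control 3 (0.0721) or knockdown 1 (0.0517). That of 11756622_a_at was lost without control 1 or control 3 (0.0559 in both). Those of 11741211_x_at and 11757166_at were lost without any 1 control, without knockdown 1 or without knockdown 3, with adjusted p-values of 0.0664 to 0.12. With no dim limit all 4 of these calls were lost (adjusted p-values of 0.0625 to 0.11), and with the replicate number as a block those of 11720916_s_at (0.0532) and 11741211_x_at (0.067) were lost. The calls of the other 4 probe sets, 11756623_at, 11757115_s_at, 11757167_x_at and 11762261_x_at, were kept under every alternative in which they were tested.

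HSP90AA1 read 11.65, 11.65 and 11.60 on the USF1 knockdown arrays by probe set 11732996_at, against 11.83, 11.83 and 11.85 on the USF1 control arrays. This was a fall by 0.20 (SE 0.03, limma adjusted p = 0.00323), kept under all 13 settings. The other probe set, 11758308_s_at, read 13.89, 13.92 and 13.93 on the USF1 knockdown arrays, against 14, 13.96 and 14 on the USF1 control arrays. Its groups did not overlap either, but its change of -0.08 did not pass (SE 0.03, limma adjusted p = 0.1), and it passed with quantile normalization (0.0474) and with an intensity trend in the variance model (0.00201). As the mean of both probe sets HSP90AA1 fell by 0.14 (SE 0.03, limma adjusted p = 0.00388).

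The HSP110 exchange factors moved little. The 4 probe sets of HSPA4 gave -0.06 to 0.08 and none passed, with limma adjusted p-values of 0.0688 to 0.336. Probe set 11751837_a_at passed with a dim limit at the 60th percentile (0.0348) and with an intensity trend in the variance model (0.0269). On 11717254_at HSPA4 read 11.37, 11.39 and 11.38 on the USF1 knockdown arrays, against 11.35, 11.33 and 11.34 on the USF1 control arrays (0.04, 95% interval -0.03 to 0.11). Over all 4 probe sets the 95% intervals ran from -0.15 to 0.15. HSPH1, which is heat-inducible like HSPA1B, gave -0.02 to 0.05 on 7 of its 8 probe sets, with overlapping groups and limma adjusted p-values of 0.316 to 0.857. The other, 11717096_a_at, read 11.46, 11.44 and 11.42 on the USF1 knockdown arrays, against 11.26, 11.31 and 11.34 on the USF1 control arrays, and rose by 0.13 (SE 0.03, limma adjusted p = 0.0214). That call was lost without USF1 control 1 (0.0733), control 2 (0.0575) or knockdown 1 (0.0686), with the replicate number as a block (0.0568) and with no dim limit (0.0711). The mean of all HSPH1 probe sets changed by 0.03 (SE 0.03, limma adjusted p = 0.396).

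The wider chaperone network was read with 1 probe set per gene, the one of highest mean, in 7 lists of 79 genes, of which 62 could be tested, 10 were dim and 7 had no probe set of their own in the tables used here. Of the 62, 16 rose, 17 fell and 29 did not pass, where 22% of 11448 genes tested rose and 18.7% fell. Without USF1 control 3, 12 of the 62 rose and 11 fell, and with a trend and robust prior in the variance model 18 rose and 27 fell. Their median change was -0.02, against 0.01 over all tested genes.

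Of 5 partners and relatives of HSF1 that were tested, 1 rose and 2 fell. HSBP1, which binds HSF1 and restrains it, rose by 0.12 (SE 0.03, limma adjusted p = 0.0277), and its 4 bright probe sets ran from -0.08 to 0.12. SIRT1, a deacetylase that prolongs HSF1 binding to DNA, read 9.70, 9.77 and 9.78 on the USF1 knockdown arrays, against 9.98, 9.96 and 9.95 on the USF1 control arrays, and fell by 0.21 (SE 0.03, limma adjusted p = 0.00203). FKBP4, an immunophilin of HSP90 complexes, fell by 0.11 (SE 0.03, limma adjusted p = 0.0233).

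Of 14 tested genes of the HSP70 family and its exchange factors 4 rose and 4 fell. HSPA2, an HSP70 best known from the testis, read 8.26, 8.21 and 8.21 on the USF1 knockdown arrays, against 7.94, 8.04 and 7.98 on the USF1 control arrays, and rose by 0.24 (SE 0.04, limma adjusted p = 0.00245). STUB1, the ubiquitin ligase CHIP that marks chaperone clients for degradation, fell by 0.14 (SE 0.03, limma adjusted p = 0.0149). BAG2, an exchange factor that inhibits STUB1, rose by 0.12 (SE 0.03, limma adjusted p = 0.0264).

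Among 15 J-domain proteins 5 rose and 5 fell. DNAJC5, the cysteine string protein of secretory vesicles, read 8.54, 8.45 and 8.45 on the USF1 knockdown arrays, against 9.01, 9.13 and 9.04 on the USF1 control arrays. It fell by 0.58 (SE 0.045, limma adjusted p = 2.02e-04), and its 4 probe sets ran from -0.80 to -0.44. DNAJB5 and DNAJB2, which belong to the same class as DNAJB1 and DNAJB4, rose by 0.27 and 0.35 (limma adjusted p = 7.39e-04 and 0.002). The bright probe sets of DNAJB5 ran from 0.27 to 0.47 and those of DNAJB2 from 0.28 to 0.41. By the probe set of highest mean the class did not move as one. DNAJB12 fell by 0.14 (SE 0.03, limma adjusted p = 0.00958), and DNAJB6 (-0.09) and DNAJB14 (0.07) did not pass. Bright probe sets of DNAJB12 ran from -0.22 to -0.12, those of DNAJB6 from -0.09 to 0.34 and those of DNAJB14 from 0.03 to 0.205. Some probe sets of DNAJB6 and DNAJB14 were thus higher than the 1 used here.

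Of 11 genes of the HSP90 family and its cochaperones 2 rose and 2 fell. The immunophilin FKBP5 rose by 0.29 (SE 0.03, limma adjusted p = 8.08e-04), with bright probe sets from 0.05 to 0.30. The cyclophilin PPID fell by 0.24 (SE 0.04, limma adjusted p = 0.0023). CHORDC1, a zinc-binding cochaperone, fell by 0.23 (SE 0.04, limma adjusted p = 0.00332), with bright probe sets from -0.45 to -0.06. Of 10 chaperonin genes 0 rose and 2 fell, namely the mitochondrial HSPD1 by 0.14 and the cytosolic CCT7 by 0.12 (limma adjusted p = 0.0352 and 0.0281). The list median was -0.05. Of 8 other small heat shock proteins 5 were dim and 3 had no probe set of their own in the tables used here, so 0 were tested.

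Of 7 further heat-inducible genes 4 rose and 2 fell, where 22% of all genes tested rose and 18.7% fell. The list median was 0.27, against 0.01 over all tested genes. The 2 that fell were RGS2, by 0.16, and MRPL18, by 0.15 (limma adjusted p = 0.00985 and 0.00622). SERPINH1, the collagen chaperone HSP47, read 9.53, 9.53 and 9.44 on the USF1 knockdown arrays, against 8.84, 8.83 and 8.85 on the USF1 control arrays. It rose by 0.66 (SE 0.03, limma adjusted p = 5.53e-05), and its 3 probe sets ran from 0.62 to 0.68. The extracellular chaperone clusterin (CLU) rose by 0.42 (SE 0.06, limma adjusted p = 0.00153), and ZFAND2A, an arsenite- and heat-inducible zinc finger protein of the proteasome, by 0.30 (SE 0.03, limma adjusted p = 8.41e-04).

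**Figure D3:**
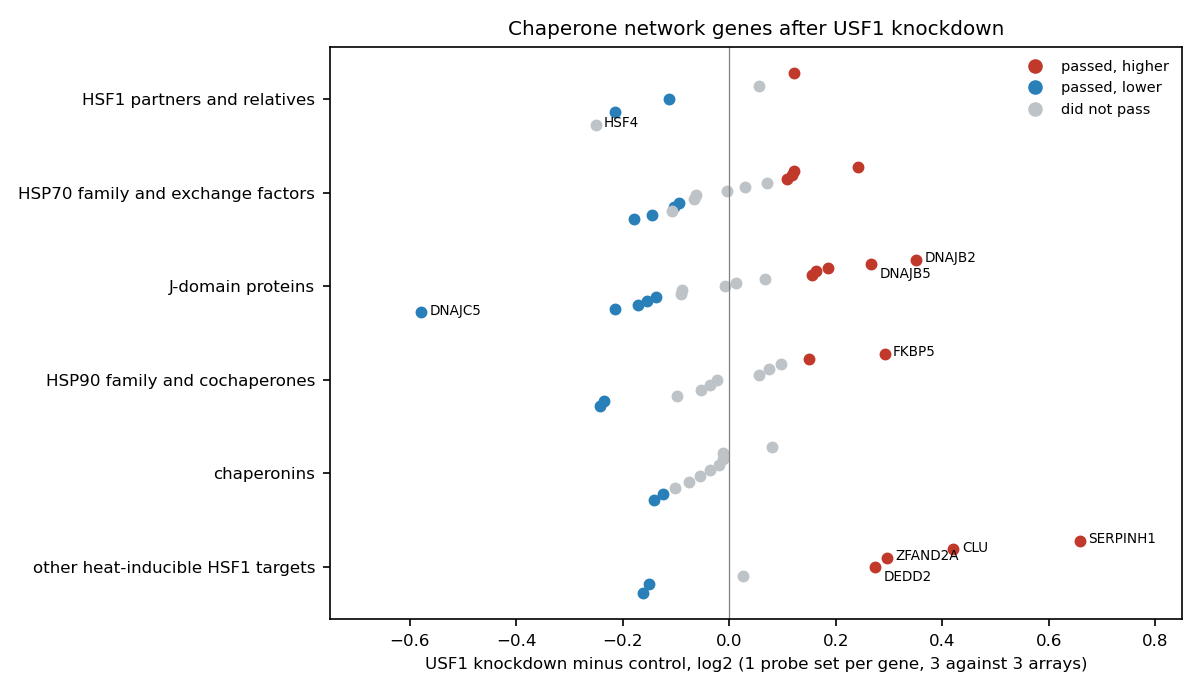
Change after USF1 knockdown (log2, knockdown minus control, horizontal axis) of the 62 tested network genes, 1 point per gene and 1 row per list, with genes that passed and were higher in red, passed and were lower in blue, and did not pass in grey. SERPINH1 lies at 0.66 and DNAJC5 at -0.58, and most chaperonins lie between -0.14 and 0.08.

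Over the 6 USF1 arrays the genes most like HSF1 were ATN1, SS18 and NDC1, by Pearson's correlation of 0.99 to 1.00 with their probe set of highest mean. Those most like DNAJB4 were CDK19, CNEP1R1 and MIA3, by Pearson's correlation of 1.00. Such values describe arrays that fall into 2 groups, so they mostly restate that each gene was higher in the knockdown.

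In the UGT1A3 pair most heat shock probe sets read lower after knockdown. Each group was a single array, so no test could be made and the differences are those of 2 arrays. Of 31 bright member probe sets 25 were lower and 6 higher, where 46.4% of all 29581 bright probe sets were lower. Of the 25, 8 were of HSPA8 and 8 of HSPH1. Probe sets of 1 gene share their transcript, so the counts in this pair also follow the number of probe sets per gene. The members' median difference was -0.21, against 0.01 over all bright probe sets. Lower by at least 0.32 on the log2 scale were 7 member probe sets and higher by as much were 3, where 8.35% and 10.3% of all bright probe sets were. Of these 7, 4 were of HSPA8. Without the 2 probe sets designed on SNORD14D 5 of 29 were lower by as much and 3 higher. With a dim limit at the 60th percentile 4 of 28 were lower by as much and 3 higher. By the probe set of highest mean per gene, 1 of 9 members differed by as much, and it was higher. Of all genes 11.1% were higher and 8.02% lower by as much, so this count was near the share over all genes. Of the 24 member probe sets among the brightest 25% of bright probe sets, 22 were lower, as were 50.6% of all 7396 probe sets there.

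HSPA8 was lower on all 8 of its probe sets that were bright in this pair, by 0.08 to 0.70. On 11762261_x_at it read 9.10 in the UGT1A3 knockdown and 9.47 in the UGT1A3 control. The largest differences, -0.70 and -0.67, were those of the 2 probe sets designed on SNORD14D. These were among the dimmer ones, at 5.20 and 5.65 in the UGT1A3 knockdown and 5.89 and 6.32 in the UGT1A3 control. With 16 intensity units added their differences shrank to -0.52 and -0.535, and that of 11756623_at from -0.54 to -0.45. The ninth probe set was dim, at 4.06 in the UGT1A3 knockdown and 4 in the UGT1A3 control. HSP90AA1 read 9.83 in the UGT1A3 knockdown and 10.27 in the UGT1A3 control on 11732996_at (-0.44), and its other probe set gave -0.22.

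HSPH1 was lower on all 8 probe sets, by 0.12 to 0.34. HSPA4 gave -0.24 to -0.15 on 3 probe sets, whereas the fourth, 11758770_at, read 8.65 in the UGT1A3 knockdown and 8.23 in the UGT1A3 control, a difference of 0.42. That probe set also had the opposite sign to the other 3 after USF1 knockdown (-0.06), where it did not pass. HSF1 read 7.48 in the UGT1A3 knockdown and 7.43 in the UGT1A3 control, a difference of 0.05, which is about the size of the median within-group SD of the USF1 arrays (0.06).

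Set side by side, 6 of the 9 measured members gave 3 patterns in the 2 knockdowns, and HSF1, HSPA4 and HSPH1, with 13 of the 31 probe sets, are not counted in them. HSF1 was slightly higher in both without passing after USF1 knockdown, the 4 HSPA4 probe sets had opposite signs in the 2 sets, and 7 of 8 HSPH1 probe sets did not pass after USF1 knockdown. DNAJB4 and HSPB1 were higher in both. DNAJB4 read 8.83 in the UGT1A3 knockdown and 8.44 in the UGT1A3 control on 11739081_at, and its 3 probe sets gave 0.30 to 0.39. HSPB1 read 11.66 in the UGT1A3 knockdown and 11.47 in the UGT1A3 control (0.19). HSPA8 and HSP90AA1 were lower in both. HSPA1B and DNAJB1 had risen after USF1 knockdown but were lower in the UGT1A3 knockdown, where HSPA1B read 9.10 against 9.35 in the UGT1A3 control (-0.25) and the 3 DNAJB1 probe sets gave -0.34 to -0.17. The 4 probe sets shared by HSPA1A and HSPA1B gave -0.25 to -0.05 in this pair. Of the 31 probe sets bright in both sets, 18 had the same sign in both and 13 the opposite sign, and 54.5% of all such probe sets had the same sign. Whether the 2 knockdowns differ was not tested, since the UGT1A3 pair has no replicates.

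**Figure D4:**
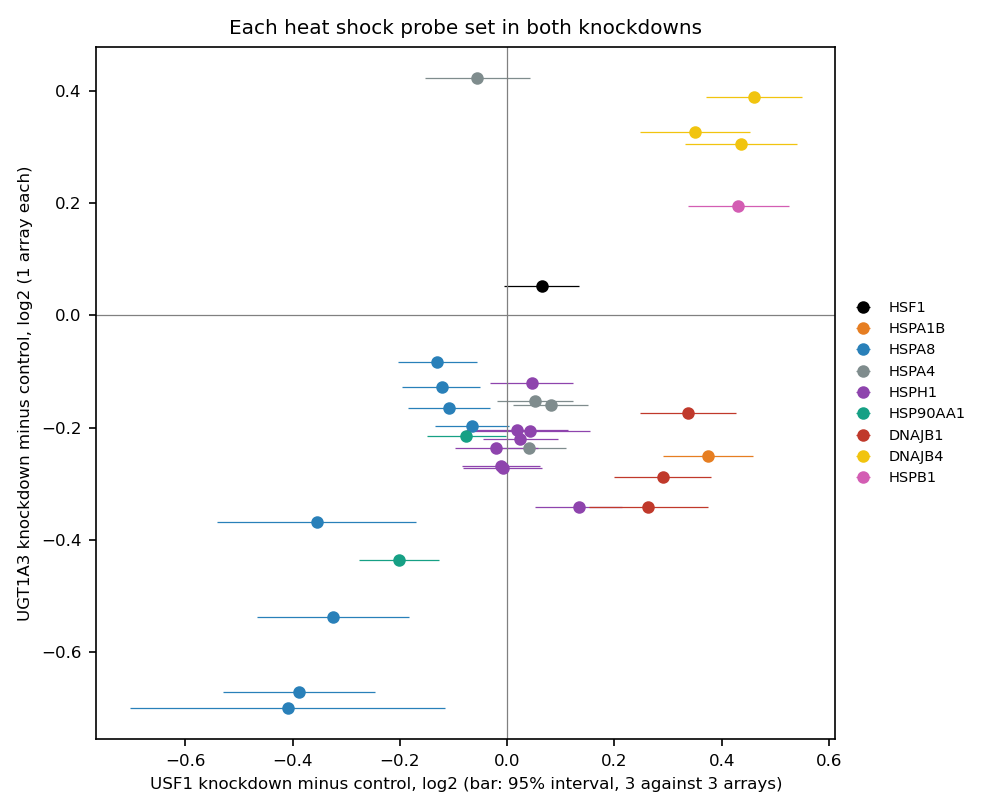
Each of the 31 member probe sets bright in both sets, with its change after USF1 knockdown (horizontal axis, log2, bars are 95% intervals from 3 against 3 arrays) and its difference in the UGT1A3 pair (vertical axis, log2, 1 array each, no error). DNAJB4 and HSPB1 lie at upper right, HSPA8 and HSP90AA1 at lower left, and HSPA1B and DNAJB1 at lower right.

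In the network lists 42 of 62 bright genes were lower in the UGT1A3 knockdown and 18 higher, where 46% of all 11620 genes were lower. Lower by at least 0.32 on the log2 scale were 10 and higher by as much 1, where 8.02% and 11.1% of all genes were. All 10 chaperonin genes were lower, with a median of -0.22 and the largest difference in CCT5, which read 11.42 in the UGT1A3 knockdown and 11.75 in the UGT1A3 control. In the other lists the largest differences were those of HSPA14 (-0.56), DNAJC9 (-0.49), the mitochondrial HSP90 protein TRAP1 (-0.47) and FKBP4 (-0.35). Among the further heat-inducible genes it was ZFAND2A, which was higher by 0.34, as it was after USF1 knockdown.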

How the data were processed

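The deposited table gives a log2 intensity for each probe set on each of 8 arrays; base 2 was inferred from the spread of values. The submitters' processing notes name MAS5. The sources used here do not give the scaling between arrays, so levels were compared only within a set. The 102 control probe sets were left out. Gene names came from the platform annotation (44988 probe sets with 1 symbol, 1832 with several, 2473 with none), and for the network lists symbols were updated by Entrez number in the RefSeq gene table of GRCh38.p14 (44961 matched).

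The USF1 arrays were fitted in R 4.3.3 with lmFit and eBayes of limma 3.58.1, with no block for replicate number, once over the 29576 bright probe sets and once over 11448 genes by their probe set of highest mean. P-values were two-sided and adjusted over all features tested (Benjamini-Hochberg). SE is the moderated standard error, and changes are knockdown minus control. For the UGT1A3 pair only differences were formed. The number of arrays limits the precision. The fit was also run on simulated data with independent normal noise. That checks the code on planted changes and is no evidence for the calls reported here.

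The members and the gene lists were chosen with earlier results of these data known. The text names all members, up to 3 genes per network list with the smallest adjusted p among those that passed, and the gene with the largest UGT1A3 difference per list. For HSF1 and for the member probe set with the smallest adjusted p it also names the 3 genes with the most similar pattern. KRT8, CDH2, CD68, DNAJB6, DNAJB12, DNAJB14, RGS2 and MRPL18 were named after their values were seen. The alternatives were quantile normalization, centring on array medians, a dim limit of the 60th percentile or none, adding 16 intensity units ahead of the log, a trend with a robust prior in eBayes, a replicate block, leaving out each USF1 array in turn, and values per gene. Sequences are those of RefSeq (GRCh38.p14), where 9 of the 10 members were matched by symbol.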

Additional observations from a re-analysis of the deposited data

How the results depend on the processing

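Of 32 member probe sets 18 passed after USF1 knockdown, and 13 to 21 passed under the settings that keep probe sets apart. There were 13 with no dim limit, where 8039 of all 49293 probe sets passed. With the 60th percentile 15 of 28 tested passed, of which 10 rose and 5 fell, and 10309 of all 19717 passed. With a trend and robust prior 21 passed, and 12748 of all 29576. In the main fit 11030 of all 29576 passed, so the share of all probe sets that passed also moved with the setting. Leaving out 1 USF1 array gave 13 to 18, with 8 or 9 rises and 5 to 9 falls, and 8179 to 10248 of all 29576. Per gene, 5 of 9 members passed by the probe set of highest mean (4 up, 1 down) and 6 of 9 by the mean of all probe sets, which follows from counting genes in place of probe sets, as do the 4657 and 4575 genes called in all, against 11030 probe sets. In the UGT1A3 pair 10 of 31 member probe sets differed by at least 0.32 on the log2 scale. By these summaries 1 and 2 of 9 genes did so. By the probe set of highest mean 11.1% of all genes were higher and 8.02% lower by as much. With the probe sets shared by HSPA1A and HSPA1B, an alternative chosen after seeing the data, 22 of 36 passed. With the replicate number as a block 15 member probe sets passed, as did 9999 of all 29576. With this block 24 of 62 network genes passed, against 33 without it. For the network, leaving out 1 USF1 array gave 23 to 28, no dim limit gave 22 of 72 (11 up, 11 down), and a trend and robust prior gave 45. The labels do not say that the replicate numbers pair the arrays, so the numbers were not taken as pairs. Same-numbered arrays correlated by -0.088, 0.17 and 0.081 in their deviations from the group means. Whether they are pairs was not tested. Leaving out 1 USF1 array turned the sign of 3 HSPH1 probe sets that did not pass with all arrays, whose changes then ran from -0.0193 to 0.0054 (11758639_s_at), from -0.0245 to 0.0015 (11748072_a_at) and from -0.0076 to 0.0524 (11755206_x_at). They crossed 0 without USF1 control 1 for the first, without USF1 control 3 (4e-04) or knockdown 1 for the second, and without USF1 knockdown 3 for the third. The cause was not tested. No detection calls were used, so values near the dim limit have unknown signal over background.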
